A study of Mus musculus with 12 samples.

Results

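Cytochrome P450 enzymes of families 1 to 4 are the part of the liver transcriptome described here. Members were the genes whose symbol is Cyp followed by a family digit from 1 to 4, a subfamily letter and a number, with a value of at least 10 normalized reads in at least 3 of 12 libraries. The rule gave 54 genes in 18 subfamilies, out of 75 symbols with such a name and 47263 genes in the table. The minimum set aside 21 of the 75.

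The study sequenced whole-liver RNA of mice in which Sirt2, an NAD-dependent deacetylase, was deleted in the liver (KO), and of wild type mice (WT). Mice of 6 to 8 weeks received plasmids through the tail vein under pressure, with a sleeping beauty transposase that inserts the transposons into the genome of liver cells, and livers were taken 8 weeks later. The MET/CAT plasmids carried the receptor kinase c-MET and a beta-catenin lacking its N-terminus, which form a model of liver cancer, and the control plasmid carried GFP. The 4 groups, each of 3 libraries, were KO MET/CAT, WT MET/CAT, KO GFP and WT GFP. All mice had the injection, the transposase and a standard diet. Mice were matched in age and gender, but the sources used here name neither the sex, nor the promoter that drives the deletion, nor the exons deleted. Groups follow the sample titles. A separate treatment label gives all WT libraries GFP and all KO libraries MET/CAT, which contradicts the titles in the KO GFP group and in the WT MET/CAT group, so every direction below rests on the titles. Separate mice are not stated for the replicates, so a p-value here covers the spread among libraries, which may be technical in part. That spread was wider than counting noise, which gives a chi-square per gene near 1, since the recovered reads of any 2 libraries of 1 group gave 42.6 to 263.

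P450 enzymes of these families sit in the endoplasmic reticulum, take electrons from the reductase Por, and add oxygen to drugs, pollutants, steroids, bile acids, retinoids and fatty acids. Family 1 is controlled by the aryl hydrocarbon receptor, many genes of families 2 and 3 by the nuclear receptors CAR (Nr1i3) and PXR (Nr1i2), and Cyp4a genes by PPARA, the fatty acid receptor. In mouse liver many of them are made around the central vein, where beta-catenin signalling is active, and several are made mainly in females or mainly in males under the control of growth hormone.

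The libraries held 18208879 to 24352961 recovered reads, and 1 read was worth 0.753 to 1.204 normalized reads, the authors' unit of counts divided by a factor per library. With 0 reads of a gene in a library, its value could still be as high as 2.26 to 3.61 normalized reads (3 reads), by counting error only. Sirt2 had 126 to 248 normalized reads in the 6 KO libraries and 726 to 1068 in the 6 WT libraries. Glul, a beta-catenin target, had 36972 to 85906 normalized reads in the 6 libraries titled MET/CAT and 16514 to 22828.5 in the 6 titled GFP. KO GFP replicate 3 stood apart on the first principal component, at −88.95 against −33.2 to 52.8 in the other libraries. Xist, made from the inactive X chromosome, had 878 to 2299.6 normalized reads over all libraries, and the Y-linked Ddx3y, Eif2s3y, Kdm5d and Uty reached at most 9.07. That is the pattern of female tissue in every library, though no source used here states the sex. All 8 hepatocyte markers passed the minimum. In whole liver, fewer cells of a type and less RNA per cell cannot be told apart.

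The most abundant member per kilobase of transcript was Cyp2e1, which oxidizes ethanol and paracetamol, at a mean of 49566 normalized reads per kilobase over the 12 libraries. Cyp3a11, the main drug-metabolizing enzyme of its subfamily in mouse liver, followed with 36582 per kilobase. Cyp2a5 and Cyp2a4 had 19482 and 19204 per kilobase, and Cyp2d26 had 13695. At the other end, Cyp1a1 had 5.99, Cyp2d12 had 3.96 and Cyp1b1 had 1.73 per kilobase, and the 54 members thus covered more than 4 orders of magnitude. Members together took 2.28% ± 0.362 of the normalized reads in KO MET/CAT livers and 2.08% ± 0.0728 in WT MET/CAT livers, against 2.68% ± 0.197 in KO GFP livers and 2.41% ± 0.238 in WT GFP livers (SD, n = 3 each). By share of the members' reads, Cyp3a genes took 19.9%, Cyp2e1 18.6%, Cyp2a genes 18.5%, Cyp2c genes 16.7%, Cyp2d genes 11.4% and Cyp4a genes 3.90%. On the log2(value + 1) scale, levels varied least over the 12 libraries for Cyp2c68 (SD 0.12) and Cyp2j5 (SD 0.15), and most for Cyp3a16 (SD 2.14), Cyp2b10 (SD 1.81) and Cyp3a44 (SD 1.44). Just inside the minimum lay Cyp2d12, which reached 10 normalized reads in 3 libraries. Just outside lay Cyp2b9, Cyp2b13 and Cyp2d11, each with 2 such libraries.

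MET/CAT livers differed from GFP livers in 4 of the 54 members when averaged over both genotypes. Cyp2b10, the classical target of CAR that phenobarbital induces, rose by a log2 fold change of 2.79, and Cyp4f17 rose by 1.08. Cyp2g1, best known from the olfactory mucosa, fell by 2.04, and the steroid hydroxylase Cyp2a4 fell by 1.07. Fold changes here and below are on the log2(value + 1) scale, and a call means a limma adjusted p under 0.05 over all 13871 genes tested, either direction. Over all genes tested 3.8% were called, 2.4% higher and 1.4% lower. The members' 2 of 54 in each direction lay somewhat above that background, a difference of few genes that was not tested. An absolute log2 fold change over 1 was seen in 9 members (16.7%, against 7.25% of all genes). The median log2 fold change of the members was 0.10, against 0.02 over all genes. Of the members, 14 had an unadjusted p under 0.05 (25.9%, against 17.9% of all genes). edgeR called 2 higher and 3 lower members, and DESeq2 4 higher and 4 lower. All 4 calls were kept in each of 12 fits that left out 1 library. Without KO GFP replicate 3, the library that stood apart, the calls numbered 7, with Cyp2a5, Cyp2u1 and Cyp4f14 added. With the replicate number as a block the calls numbered 7, adding Cyp2a5, Cyp4a10 and Cyp4a14.

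**Figure D1:**
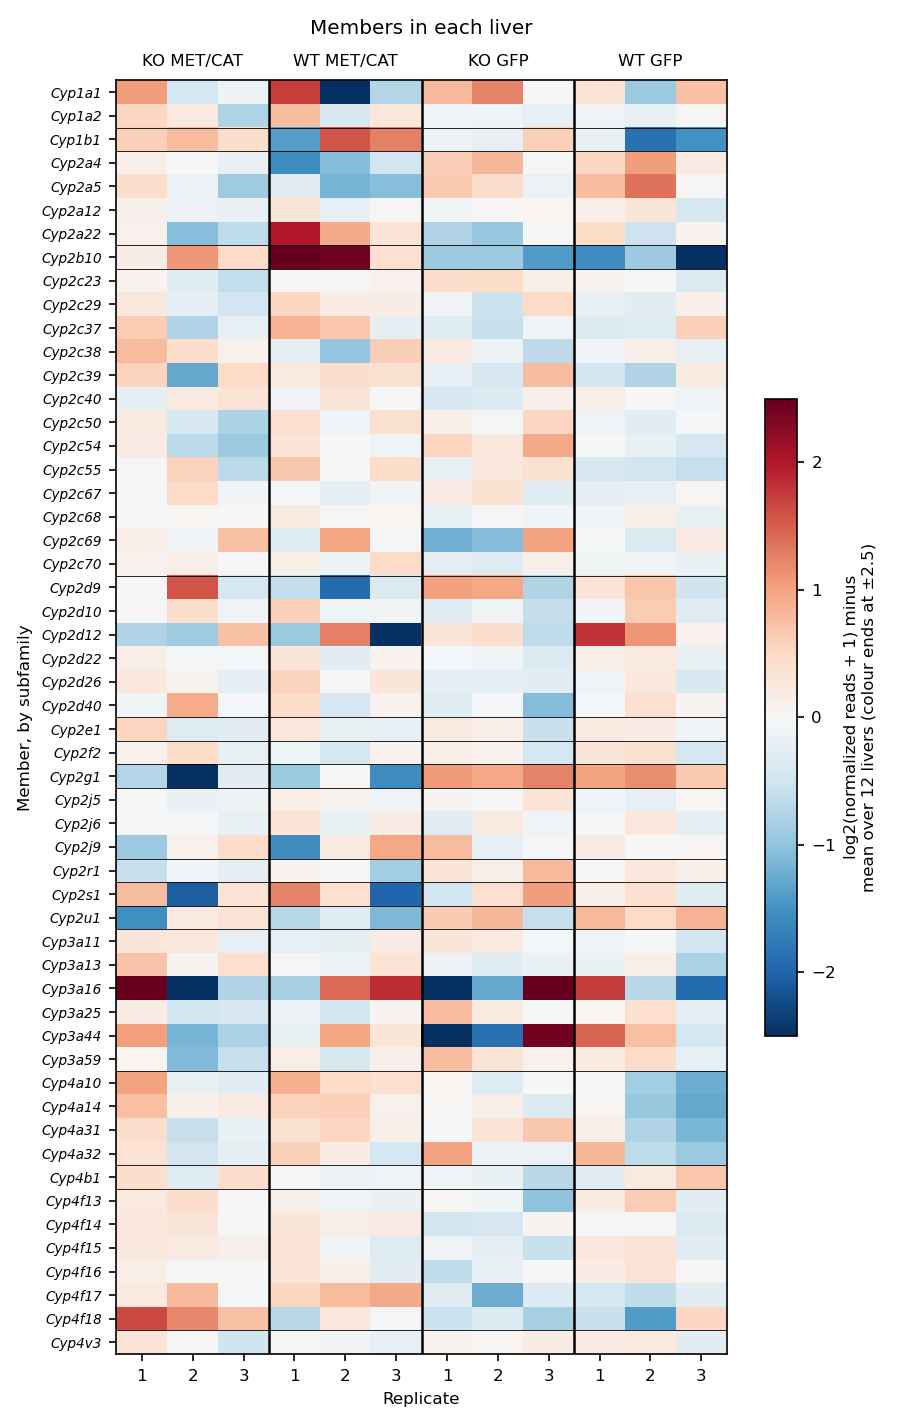
The level of each of the 54 members (rows, by subfamily) in each of the 12 libraries (columns), as log2(value + 1) minus the member's mean over the libraries, so that colour shows a difference from that mean. Cyp2b10 is above its mean in all 6 MET/CAT libraries, Cyp2g1 is above its mean in all 6 GFP libraries, and most other rows show no split by plasmid.

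Within WT livers, 2 of 54 members were called between MET/CAT and GFP, Cyp2b10 higher and Cyp2a4 lower, against 0.339% of all genes (0.209% higher and 0.13% lower). Within KO livers 0 of 54 were called, against 1.25% of all genes (0.858% higher and 0.397% lower). In KO livers 12 members had an unadjusted p under 0.05 (22.2%, against 20.3% of all genes), and in WT livers 11 did (20.4%, against 14.8%). edgeR called 0 members in KO livers and 2 in WT livers, and DESeq2 called 5 in KO livers and 8 in WT livers. The difference between the genotypes was itself tested as an interaction of KO and MET/CAT, and 0 of 54 members were called, against 0% of all genes. For the interaction, 7 members had an unadjusted p under 0.05 (13.0%, against 15.5% of all genes), and edgeR and DESeq2 called 0 members. The 6 MET/CAT libraries lay apart from the 6 GFP libraries for 3 of 54 members, namely Cyp2b10 and Cyp4f17 above and Cyp2g1 below, against 2.49% of all genes (1.61% above and 0.872% below). Within 1 genotype, where 3 libraries face 3, such a separation was common. It held for 13 of 54 members in KO livers, 7 of them above and 6 below, against 25% of all genes (14.4% above and 10.7% below). It held for 13 of 54 in WT livers, 9 above and 4 below, against 20.7% of all genes (10.5% above and 10.3% below), so that a separation within 1 genotype is read below as a description.

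**Figure D2:**
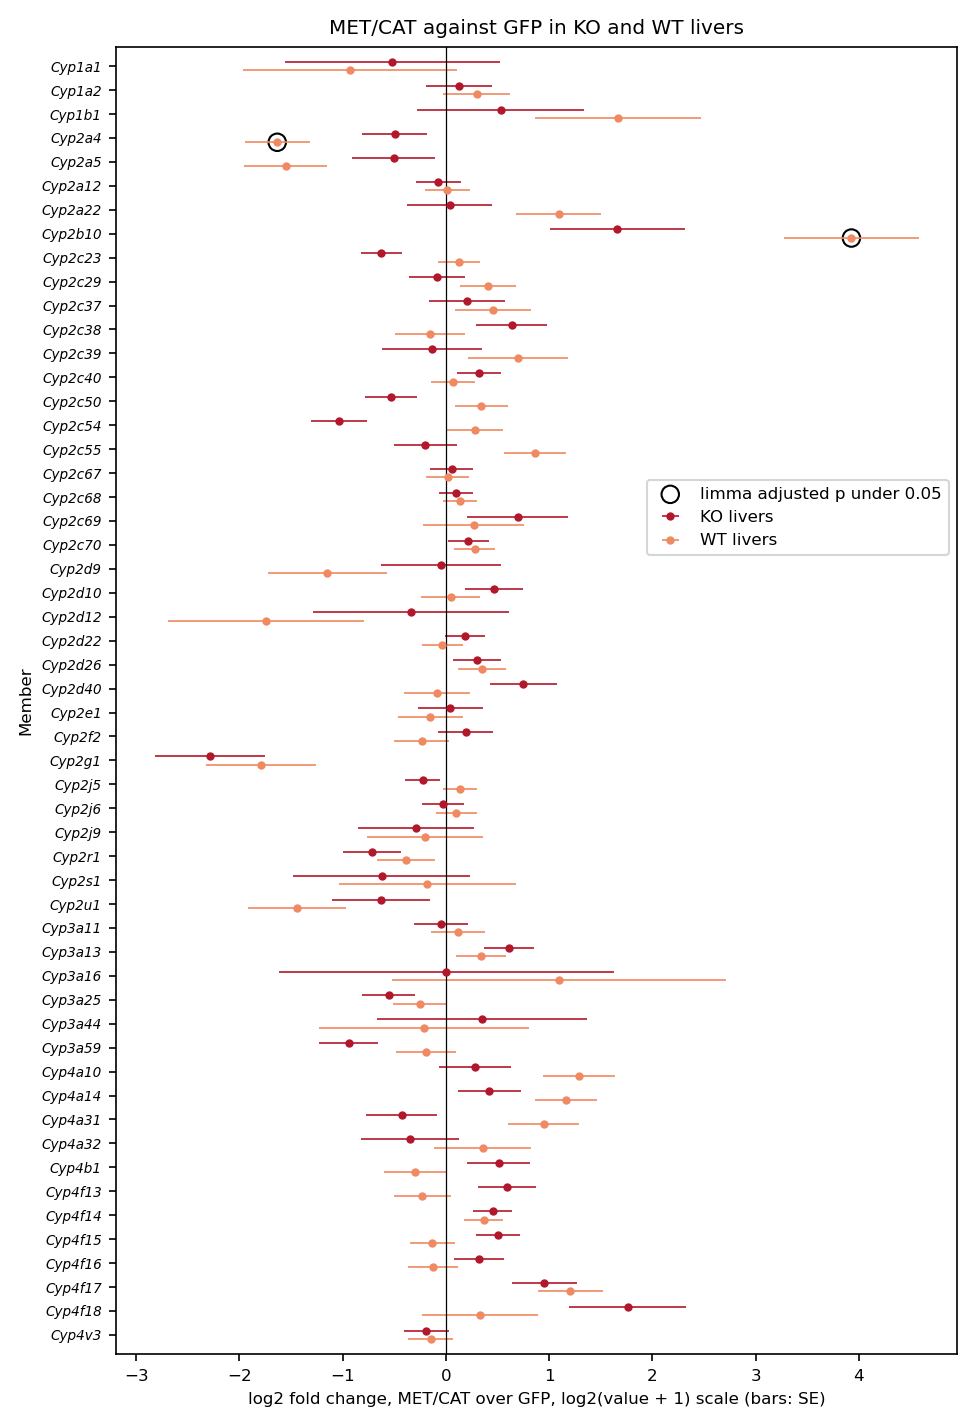
Log2 fold changes of MET/CAT over GFP, on the log2(value + 1) scale, for each member in KO livers and in WT livers, with standard errors from the limma fit. Cyp2b10 lies highest in WT livers at 3.93 against 1.66 in KO livers, and Cyp2g1 lies lowest in both genotypes, at −2.28 in KO livers and −1.79 in WT livers.

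Cyp2b10 is the single member of its subfamily, and its 3.93 in WT livers was the highest value among the members in any comparison between plasmids. It had 149, 279 and 183 normalized reads in KO MET/CAT livers and 1830.0, 716 and 176 in WT MET/CAT livers, against 69.3, 69.2 and 48.8 in KO GFP livers and 43.9, 69.1 and 19.9 in WT GFP livers. All 6 MET/CAT libraries were above all 6 GFP libraries, and WT MET/CAT replicates 1 and 2 were above every other library. The mean was 555 ± 659.5 normalized reads in MET/CAT livers, against 53.4 ± 19.9 in GFP livers (SD, n = 6 each). Averaged over genotypes the log2 fold change was 2.79 (SE 0.46, adjusted p = 0.00560), and leaving out 1 library moved it between 2.40 and 3.24. In KO livers it was 1.66 (SE 0.65, adjusted p = 0.184), and in WT livers the adjusted p was 0.0216. The call in WT livers was lost without WT GFP replicate 1, 2 or 3 or WT MET/CAT replicate 2, with adjusted p of at most 0.0931, while the fold change stayed between 3.14 and 4.83. The genotypes' responses differed by −2.27 (SE 0.92, adjusted p = 0.283), which did not pass. Of the 50-base words of the Cyp2b10 transcript 7.70% also occurred in another P450 transcript, and 6.94% in that of Cyp2b13. Reads of these genes could thus in small part be split between them or lost in counting.

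Cyp2b9 and Cyp2b13, neighbours of Cyp2b10 known as female-biased genes of mouse liver, fell below the minimum because they were read in so few libraries, and are shown because of what their values look like, chosen after those were seen. Cyp2b9 had 0, 0 and 0 normalized reads in KO MET/CAT livers and 8586, 6216 and 0 in WT MET/CAT livers, against 0.753, 0 and 0 in KO GFP livers and 0, 0 and 0.866 in WT GFP livers. Cyp2b13 had 0, 0 and 0 normalized reads in KO MET/CAT livers and 6738, 2727 and 0 in WT MET/CAT livers, against 0, 0 and 0 in KO GFP livers and 0, 0 and 0 in WT GFP livers. Both were thus abundant in the WT MET/CAT replicates 1 and 2 that were also highest in Cyp2b10, and at 0 in WT MET/CAT replicate 3 and in all KO MET/CAT libraries. Per kilobase of transcript, WT MET/CAT replicate 1 had 4577 normalized reads of Cyp2b9, 3594 of Cyp2b13 and 955 of Cyp2b10. WT MET/CAT replicate 2 had 3314, 1454 and 374 per kilobase of the same genes, and Cyp2b10 had 10.4 to 146 per kilobase in the other 10 libraries. With 1 group split in this way, no test of WT MET/CAT against the rest was made for this pair. Sult2a1, a sulfotransferase of steroids made mainly in female mouse liver, had 813, 17.8 and 1412 normalized reads in KO MET/CAT livers and 7805, 3123 and 1189.7 in WT MET/CAT livers, against 112, 119 and 2248 in KO GFP livers and 1427, 170.0 and 989 in WT GFP livers. It was highest in WT MET/CAT replicates 1 and 2, as Cyp2b9 and Cyp2b13 were, and that likeness is a description over 12 libraries. Other female-biased genes did not share it. Cyp2a4 was lowest in these 2 libraries, at 10112 and 14026 normalized reads, and Cyp3a16 and Cyp3a44 were highest in KO GFP replicate 3.

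The promoters of the 3 Cyp2b genes and of Cyp2a4 and Cyp2a5 are shown because the genes lie in 1 gene cluster in which called members lie in both directions. Each line is the 250 bases before the RefSeq start on GRCm38.p6, 5′ to 3′, in lower case, with capitals for matches on either strand to AGGTCA (a half-site of nuclear receptors), GCGTG (core of the dioxin response element), TATAAA (a core promoter box) or TTCNNNGAA (a palindrome of STAT factors). No 2 matches overlapped.
Cyp2b10 promoter (chr7:25897408-25897657, plus strand): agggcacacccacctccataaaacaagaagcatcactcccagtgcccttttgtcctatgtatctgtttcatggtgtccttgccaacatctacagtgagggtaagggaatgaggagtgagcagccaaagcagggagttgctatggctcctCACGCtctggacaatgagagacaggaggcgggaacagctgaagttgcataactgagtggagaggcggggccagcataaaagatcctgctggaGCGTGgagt
Cyp2b9 promoter (chr7:26173159-26173408, plus strand): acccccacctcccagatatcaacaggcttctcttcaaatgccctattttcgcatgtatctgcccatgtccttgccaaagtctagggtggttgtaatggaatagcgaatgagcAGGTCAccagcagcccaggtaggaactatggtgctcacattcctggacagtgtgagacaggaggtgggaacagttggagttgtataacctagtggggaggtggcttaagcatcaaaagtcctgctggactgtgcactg
Cyp2b13 promoter (chr7:26061245-26061494, plus strand): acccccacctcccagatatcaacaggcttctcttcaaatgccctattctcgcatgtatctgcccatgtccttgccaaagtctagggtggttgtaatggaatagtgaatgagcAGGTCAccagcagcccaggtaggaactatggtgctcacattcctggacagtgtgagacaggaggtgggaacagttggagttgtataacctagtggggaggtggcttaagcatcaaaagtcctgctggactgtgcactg
Cyp2a4 promoter (chr7:26306942-26307191, plus strand): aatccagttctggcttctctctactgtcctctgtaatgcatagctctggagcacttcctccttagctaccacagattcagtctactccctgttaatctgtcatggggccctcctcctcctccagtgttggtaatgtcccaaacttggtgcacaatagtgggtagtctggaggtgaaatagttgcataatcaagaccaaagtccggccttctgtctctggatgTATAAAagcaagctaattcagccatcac
Cyp2a5 promoter (chr7:26835089-26835338, plus strand): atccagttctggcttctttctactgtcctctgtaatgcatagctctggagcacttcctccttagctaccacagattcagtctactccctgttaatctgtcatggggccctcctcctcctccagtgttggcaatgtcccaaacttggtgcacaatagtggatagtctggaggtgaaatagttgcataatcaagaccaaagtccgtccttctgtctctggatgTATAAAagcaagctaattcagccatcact
Cyp2b9 and Cyp2b13 were identical at 99.2% of 250 aligned bases, and Cyp2b10 matched each of them at 74.58% of 240. Cyp2a4 and Cyp2a5 were identical at 98.39% of 249 aligned bases. AGGTCA occurred 1 time each in Cyp2b9 and Cyp2b13, GCGTG 2 times in Cyp2b10, 1 of them on the minus strand as CACGC, and TATAAA 1 time each in Cyp2a4 and Cyp2a5, while TTCNNNGAA occurred in none of the 5. Of 32851 RefSeq promoters of this length, 14.02% held AGGTCA, 28.16% GCGTG, 12.37% TATAAA and 7.02% TTCNNNGAA. Promoters were to hand for 44 of the 54 members, and 9, 8, 21 and 2 of these held the same 4 motifs, in that order. A match describes letters in a window and says nothing of binding.

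Cyp2a4, a testosterone hydroxylase that female mouse liver makes more of, and Cyp2a5, which oxidizes coumarin and nicotine, were both below GFP levels in WT MET/CAT livers. Cyp2a4 had 32437, 29584 and 26236 normalized reads in KO MET/CAT livers and 10112, 14026 and 21412 in WT MET/CAT livers, against 45653, 53079 and 29235 in KO GFP livers and 42555, 61598 and 34603 in WT GFP livers. All 3 WT MET/CAT libraries were below the other 9 libraries, while KO MET/CAT and KO GFP livers overlapped. The mean was 22301 ± 8822 normalized reads in MET/CAT livers, against 44454 ± 11849 in GFP livers (SD, n = 6 each). The log2 fold change was −1.07 (SE 0.22, adjusted p = 0.0175) averaged over genotypes, −0.50 (SE 0.31, adjusted p = 0.385) in KO livers and −1.63 (SE 0.31, adjusted p = 0.0473) in WT livers. The averaged call was kept without any 1 library, between −1.21 and −0.94. The WT call was lost without WT GFP replicate 1 or 2, KO GFP replicate 1, WT MET/CAT replicate 2 or KO MET/CAT replicate 2 or 3, with adjusted p of at most 0.179. The genotypes' responses differed by 1.14 (SE 0.44, adjusted p = 0.278), which did not pass.

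Cyp2a5 had 46689.8, 31136 and 18688 normalized reads in KO MET/CAT livers and 28744, 15304 and 16364 in WT MET/CAT livers, against 54024, 46496 and 31050.1 in KO GFP livers and 59099, 88096 and 34904 in WT GFP livers. The WT MET/CAT libraries were below the WT GFP libraries, and the KO groups overlapped. Its averaged log2 fold change of −1.03 (SE 0.28, adjusted p = 0.0609) missed the threshold, and in WT livers it was −1.55 (SE 0.40, adjusted p = 0.101). The averaged value passed without WT GFP replicate 3, KO GFP replicate 3, WT MET/CAT replicate 1 or KO MET/CAT replicate 1, and with edgeR and DESeq2. Of the 50-base words in the Cyp2a4 transcript, 36.1% also occurred in that of Cyp2a5. Reads of these 2 genes could thus be split between them or lost in counting. The other 2 members of the subfamily were Cyp2a12, a testosterone and bile acid hydroxylase, and Cyp2a22. Cyp2a12 ranged from 12530 to 20367 normalized reads over all libraries, with no separation of the groups. Summed over its 4 members, the subfamily had 78043 ± 19186 normalized reads in KO MET/CAT livers and 54718 ± 8841 in WT MET/CAT livers, against 103682 ± 22028 in KO GFP livers and 125070 ± 43947 in WT GFP livers (SD, n = 3 each).

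Cyp2g1 had 28.9, 7.32 and 40.3 normalized reads in KO MET/CAT livers and 24.9, 47.5 and 15.6 in WT MET/CAT livers, against 103, 96.1 and 117 in KO GFP livers and 98.7, 109.9 and 77.1 in WT GFP livers. All 6 MET/CAT libraries were below all 6 GFP libraries, in both genotypes. Its mean was 27.4 ± 14.97 normalized reads in MET/CAT livers, against 100.3 ± 13.6 in GFP livers (SD, n = 6 each). The averaged log2 fold change was −2.04 (SE 0.38, adjusted p = 0.00932), between −2.27 and −1.69 with 1 library left out. In KO livers it was −2.28 (SE 0.54, adjusted p = 0.0536) and in WT livers −1.79 (SE 0.54, adjusted p = 0.145). No 50-base word of its transcript occurred in another P450 transcript.

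Of the 4 called members, 3 lie in 1 gene cluster, with other P450 genes between them. The share called over all genes was 3.8%. The cluster was drawn around Cyp2b10, itself a called member, so its share of calls is not a result about the place. A stretch of 1356 kilobases on chromosome 7 (25802475 to 27158668, GRCm38, GENCODE M21) held 13 symbols of the name pattern, of which 8 were members. Of these 8, Cyp2b10 (25897620 to 25926624) was called higher, and Cyp2a4 (26307169 to 26315088) and Cyp2g1 (26808892 to 26821205) were called lower, averaged over genotypes. Of the 46 members elsewhere in the genome 1 was called, Cyp4f17 (chromosome 17, 32506050 to 32530143). The other cluster members, Cyp2s1, Cyp2a5, Cyp2a22, Cyp2a12 and Cyp2f2, were not called, and the cluster held calls in both directions. These positions are a description and were not tested.

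**Figure D3:**
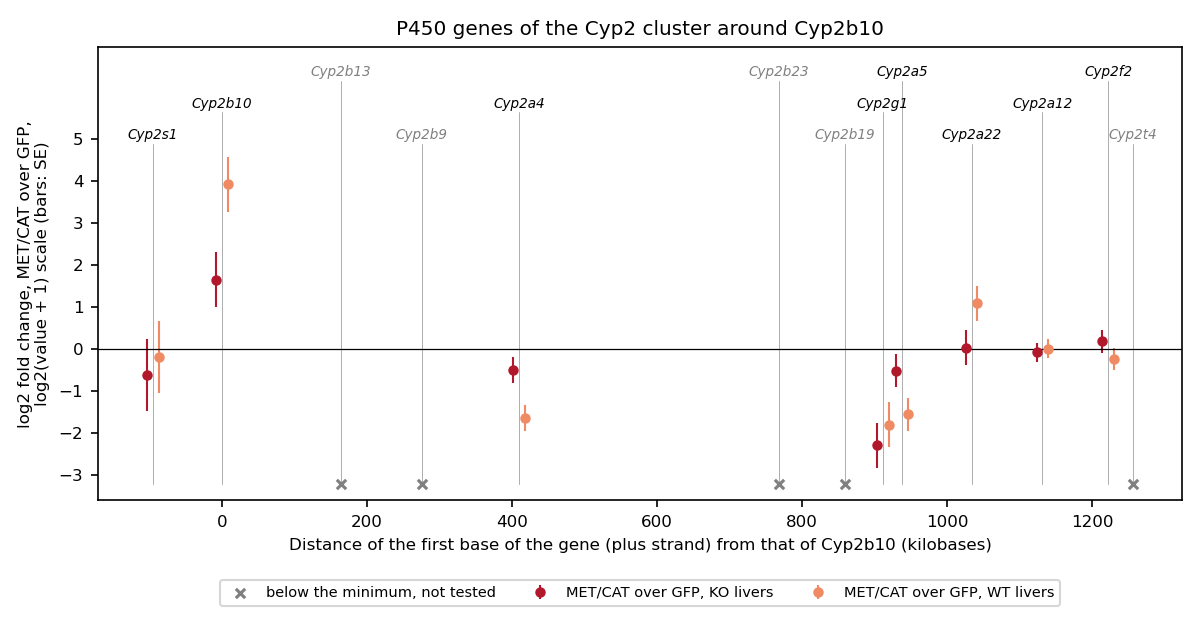
Log2 fold change of MET/CAT over GFP on the log2(value + 1) scale, in KO and in WT livers, against distance from Cyp2b10 in kilobases for the genes of the cluster on chromosome 7, with members and genes below the minimum marked apart. Cyp2b10 lies highest among the members, and Cyp2a4, Cyp2g1 and Cyp2a5 lie below 0 in both genotypes.

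Family 1 showed no call. Cyp1a2, the hepatocyte enzyme that metabolizes caffeine, had 17281, 14412 and 7133 normalized reads in KO MET/CAT livers and 20837, 9249.9 and 14500.5 in WT MET/CAT livers, against 11573, 11227 and 10565 in KO GFP livers and 11403, 10644 and 12409.5 in WT GFP livers. The MET/CAT libraries held both the lowest and the highest values, and the GFP libraries lay between 10565 and 12409.5. Its averaged log2 fold change was 0.21 (SE 0.23, adjusted p = 0.689), and it turned negative, at −0.00418, with library quality weights. Cyp1a1, which aromatic hydrocarbons induce through the aryl hydrocarbon receptor, had 25.3, 8.37 and 10.6 normalized reads in KO MET/CAT livers and 40.9, 0 and 6.67 in WT MET/CAT livers, against 21.1, 28.8 and 11.8 in KO GFP livers and 14.96, 5.67 and 19.9 in WT GFP livers. Cyp1b1, an estradiol hydroxylase found mainly outside hepatocytes, had 10.8, 12.6 and 9.55 normalized reads in KO MET/CAT livers and 1.99, 22.1 and 17.8 in WT MET/CAT livers, against 6.02, 5.76 and 10.8 in KO GFP livers and 5.98, 1.13 and 1.73 in WT GFP livers. Both were low in every library, and the groups overlapped.

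The Cyp2c subfamily, with 13 members, holds epoxygenases of arachidonic acid and enzymes of drugs, retinoids and bile acids. In KO livers 7 of 13 members were above 0 between MET/CAT and GFP (median log2 fold change 0.06), and in WT livers 12 of 13 (median 0.28). When libraries were scaled to equal totals, the median over all genes became −0.17 in KO livers and −0.12 in WT livers, and the counts 3 and 10. None was called in either genotype. The share of 50-base words also found in another P450 transcript ran from 0% for Cyp2c23 and Cyp2c70 to 60.3% for Cyp2c40. The 13 genes may thus not be fully separate counts, since reads could be split between genes or lost in counting. Cyp2c29, the most abundant of them per kilobase, had 21451, 15042 and 12661 normalized reads in KO MET/CAT livers and 25062, 19822 and 20008 in WT MET/CAT livers, against 16387, 12124 and 24623 in KO GFP livers and 15357, 14397 and 19139.7 in WT GFP livers. The WT MET/CAT libraries were above the WT GFP libraries, and the KO groups overlapped. Cyp2c54, an epoxygenase, had 3758, 2064 and 1719.6 normalized reads in KO MET/CAT livers and 4062, 3233 and 3025 in WT MET/CAT livers, against 4696, 3877 and 6254 in KO GFP livers and 3197, 2842 and 2431 in WT GFP livers. The 3 KO MET/CAT libraries were below the 3 KO GFP libraries, and the WT groups overlapped. Its log2 fold change was −1.03 (SE 0.27, adjusted p = 0.0783) in KO livers, 0.28 in WT livers and −0.37 averaged. Without KO MET/CAT replicate 1 it was called in KO livers. Cyp2c23, another epoxygenase, had 5380.3, 4100.0 and 3323 normalized reads in KO MET/CAT livers and 5176, 4898 and 5464 in WT MET/CAT livers, against 6897, 6931 and 5628 in KO GFP livers and 5326, 5019 and 3959 in WT GFP livers. Again the KO MET/CAT libraries were below the KO GFP libraries, with a log2 fold change of −0.63 (SE 0.20, adjusted p = 0.126), and the WT groups overlapped. Cyp2c70, which makes the muricholic acids of mouse bile, ranged from 9625 to 16675 normalized reads over all libraries.

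The Cyp2d subfamily had 6 members and no call. Cyp2d9, a testosterone hydroxylase made mainly in male mouse liver, had 3529, 10754 and 2639 normalized reads in KO MET/CAT livers and 2358, 942 and 2815 in WT MET/CAT livers, against 7305, 7071 and 2138 in KO GFP livers and 4590.2, 5796 and 2558 in WT GFP livers. KO MET/CAT replicate 2 was the highest library and WT MET/CAT replicate 2 the lowest. Cyp2d26, the most abundant per kilobase, had 27526, 24122 and 19489 normalized reads in KO MET/CAT livers and 34149, 22329.7 and 28147 in WT MET/CAT livers, against 19472, 19163 and 18625 in KO GFP livers and 21523, 27302 and 17534 in WT GFP livers. In KO livers the MET/CAT libraries were just above the GFP libraries, and in WT livers they overlapped.

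The remaining genes of family 2 are single genes or small groups. Cyp2e1 had 129679, 71302 and 72844 normalized reads in KO MET/CAT livers and 107836, 77849 and 77608 in WT MET/CAT livers, against 103419, 99212 and 60258 in KO GFP livers and 104458, 100655 and 85135 in WT GFP livers. KO MET/CAT replicate 1 was the highest and KO GFP replicate 3 the lowest, and the averaged log2 fold change was −0.06 (SE 0.22, adjusted p = 0.933), with a sign that turned in 3 of 12 fits that left out 1 library. Cyp2f2, a periportal enzyme that activates naphthalene, had 15629, 19972 and 12710.1 normalized reads in KO MET/CAT livers and 13423, 10875 and 15379 in WT MET/CAT livers, against 16299.8, 15324 and 10659.8 in KO GFP livers and 17986, 18984 and 10718 in WT GFP livers, with an averaged log2 fold change of −0.02 (SE 0.19, adjusted p = 0.969) that changed sign in 6 of those 12 fits. Cyp2j5, an epoxygenase, had 7256, 6545 and 6714 normalized reads in KO MET/CAT livers and 8259, 7739 and 6908 in WT MET/CAT livers, against 7695, 7268 and 9127 in KO GFP livers and 6837, 6399 and 7617 in WT GFP livers. The KO MET/CAT libraries were below the KO GFP libraries, by a small margin, and the WT groups overlapped. Cyp2r1, which activates vitamin D, had 167, 239.6 and 211 normalized reads in KO MET/CAT livers and 265, 249.9 and 136 in WT MET/CAT livers, against 314, 275 and 441 in KO GFP livers and 245, 300.3 and 273 in WT GFP livers. Here too the KO MET/CAT libraries were below the KO GFP libraries. Cyp2u1, a hydroxylase of long-chain fatty acids, had 48.2, 167 and 179 normalized reads in KO MET/CAT livers and 85.7, 114 and 64.5 in WT MET/CAT livers, against 224, 254 and 94.9 in KO GFP livers and 247, 201 and 259 in WT GFP livers. The WT MET/CAT libraries were below the WT GFP libraries, while KO GFP replicate 3 was low and the KO groups overlapped. Its averaged log2 fold change was −1.03 (SE 0.34, adjusted p = 0.112), and of the fits that left out 1 library only the 1 without KO GFP replicate 3 called it. Cyp2s1, known from epithelia, had 28.9, 3.14 and 21.2 normalized reads in KO MET/CAT livers and 39.9, 22.1 and 3.34 in WT MET/CAT livers, against 11.3, 22.1 and 34.4 in KO GFP livers and 17.95, 21.5 and 12.99 in WT GFP livers, with no separation.

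The Cyp3a subfamily had 6 members and no call. Cyp3a11 had 103863, 100966 and 73055 normalized reads in KO MET/CAT livers and 73006, 72753 and 96787 in WT MET/CAT livers, against 103781, 98541 and 82538 in KO GFP livers and 78873, 84065 and 60756 in WT GFP livers. The groups overlapped, and the averaged log2 fold change was 0.04 (SE 0.19, adjusted p = 0.951), with a sign that turned under 3 other settings and in 5 of 12 fits that left out 1 library. Cyp3a59 had 1117, 501 and 719 normalized reads in KO MET/CAT livers and 1213, 818 and 1177 in WT MET/CAT livers, against 1829.5, 1351 and 1159.8 in KO GFP livers and 1262, 1478 and 936 in WT GFP livers. Its KO MET/CAT libraries were below its KO GFP libraries, with a log2 fold change of −0.94 (SE 0.29, adjusted p = 0.116), and the WT groups overlapped. Cyp3a13 had 3844 to 5963 normalized reads in KO MET/CAT livers, above the 2972 to 3282 of KO GFP livers. Cyp3a16 and Cyp3a44, made mainly in females, varied more between libraries of 1 group than between groups, from 0 to 68.7 and from 7.53 to 261 normalized reads, and both were highest in KO GFP replicate 3.

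**Figure D4:**
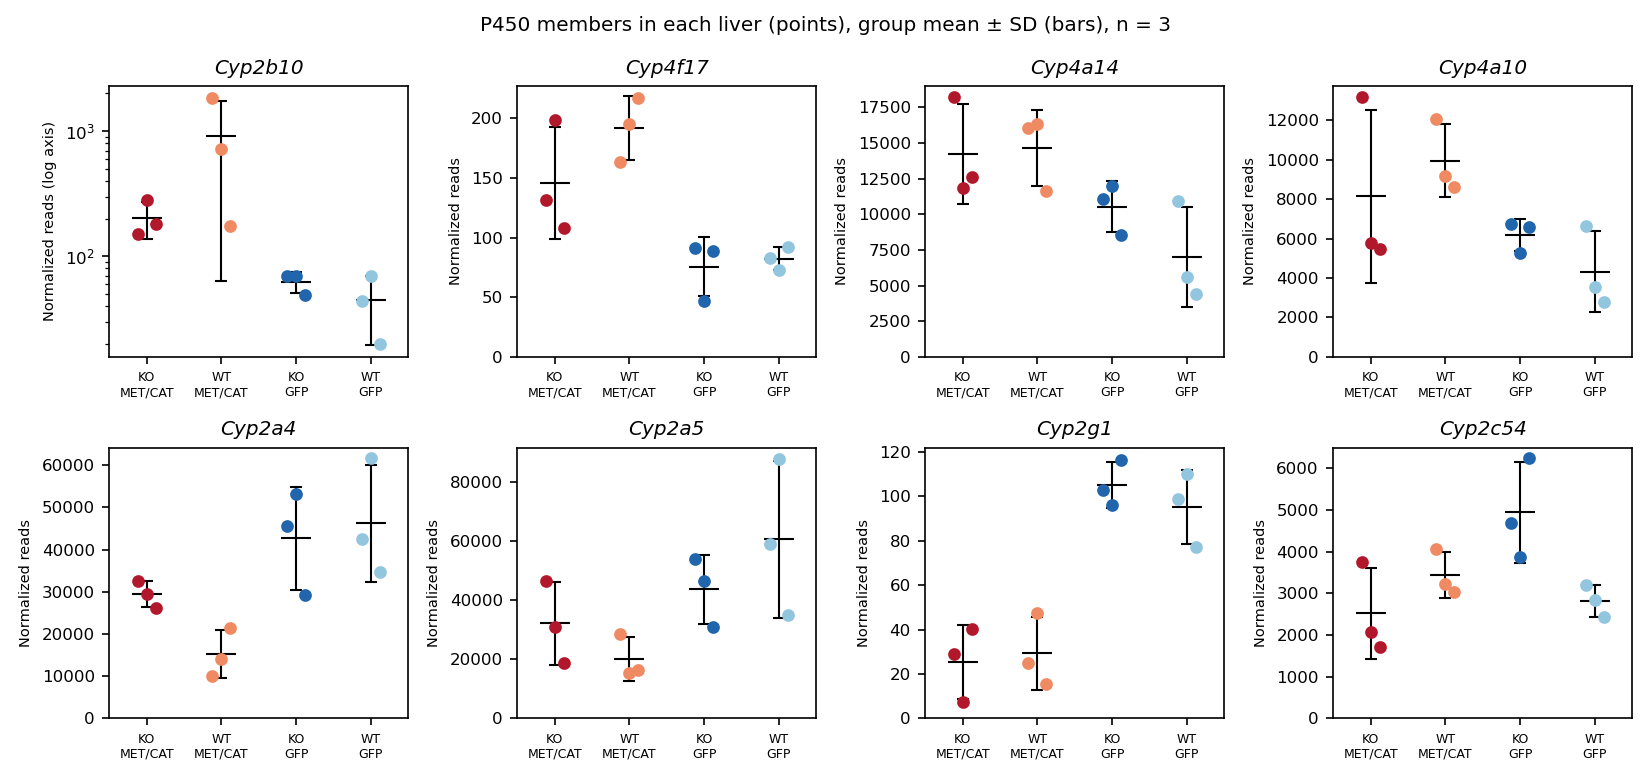
Normalized reads of Cyp2b10 (log axis) and of Cyp4f17, Cyp4a14, Cyp4a10, Cyp2a4, Cyp2a5, Cyp2g1 and Cyp2c54 (linear axes from 0) by group, with a point for each library, a line for the group mean and bars for its SD (n = 3). MET/CAT libraries lie apart from GFP libraries for Cyp2b10, at 149 to 1830.0 against 19.9 to 69.3, and for Cyp4f17 and Cyp2g1, while the other 5 overlap in at least 1 genotype.

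The Cyp4a genes encode omega-hydroxylases of fatty acids and are classical targets of PPARA. In WT livers all 4 were above 0 between MET/CAT and GFP (median log2 fold change 1.05), under each of 4 other scalings too, and none was called. In KO livers 2 of 4 were above 0 (median −0.03). The share of 50-base words also found in another P450 transcript ran from 0.2353% for Cyp4a14 to 43.83% for Cyp4a32. Reads of Cyp4a10, Cyp4a31 and Cyp4a32 could thus be split between them or lost in counting, and the 4 genes may not be fully separate counts. Cyp4a14 had 18265, 11819.8 and 12622 normalized reads in KO MET/CAT livers and 16078, 16324 and 11604 in WT MET/CAT livers, against 11099, 11964 and 8559.8 in KO GFP livers and 10966, 5577 and 4434 in WT GFP livers. The WT MET/CAT libraries were above the WT GFP libraries, and the KO groups overlapped by a narrow margin. Its log2 fold change was 0.79 (SE 0.22, adjusted p = 0.0596) averaged, 0.42 (SE 0.30, adjusted p = 0.453) in KO livers and 1.16 (SE 0.30, adjusted p = 0.105) in WT livers. Cyp4a10 had 13194, 5758 and 5466 normalized reads in KO MET/CAT livers and 12055, 9166 and 8636 in WT MET/CAT livers, against 6733, 5255 and 6569 in KO GFP livers and 6645, 3564 and 2776 in WT GFP livers. Its WT groups lay apart likewise, while its KO groups overlapped widely, and it had a log2 fold change of 0.78 (SE 0.25, adjusted p = 0.100) averaged and 1.29 (SE 0.35, adjusted p = 0.113) in WT livers. Both were called averaged over genotypes by DESeq2. Summed over its 4 members, the subfamily had 22637 ± 7959 normalized reads in KO MET/CAT livers and 24954 ± 4076 in WT MET/CAT livers, against 17073 ± 1406 in KO GFP livers and 11539 ± 5659 in WT GFP livers (SD, n = 3 each).

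The Cyp4f subfamily acts on leukotrienes and long-chain fatty acids. In KO livers all 6 members were above 0 between MET/CAT and GFP (median log2 fold change 0.55), under each of 4 other scalings too, and in WT livers 3 of 6 (median 0.10). Cyp4f17 had 131, 199 and 108 normalized reads in KO MET/CAT livers and 163, 195 and 217 in WT MET/CAT livers, against 91.1, 47.1 and 88.6 in KO GFP livers and 82.8, 72.5 and 91.8 in WT GFP livers. All 6 MET/CAT libraries were above all 6 GFP libraries. The mean was 169 ± 42.4 normalized reads in MET/CAT livers, against 78.98 ± 17.2 in GFP livers (SD, n = 6 each). Its averaged log2 fold change was 1.08 (SE 0.22, adjusted p = 0.0168), between 0.93 and 1.18 with 1 library left out, and it was 0.95 (SE 0.31, adjusted p = 0.130) in KO livers and 1.21 (SE 0.31, adjusted p = 0.104) in WT livers. Cyp4f14, a leukotriene hydroxylase and the most abundant of the subfamily per kilobase, had 7389, 7632 and 6103 normalized reads in KO MET/CAT livers and 7640.1, 6961 and 7098 in WT MET/CAT livers, against 4464, 4639.6 and 6447 in KO GFP livers and 5948, 6041 and 4884 in WT GFP livers. The WT MET/CAT libraries were above the WT GFP libraries, and the KO groups overlapped through KO GFP replicate 3.

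Cyp4f18, known as a leukotriene hydroxylase of mouse neutrophils, had 44.6, 32.4 and 23.4 normalized reads in KO MET/CAT livers and 7.97, 16.9 and 13.3 in WT MET/CAT livers, against 9.03, 10.6 and 7.23 in KO GFP livers and 8.98, 4.53 and 19.9 in WT GFP livers. The 3 KO MET/CAT libraries were above the other 9. Its log2 fold change was 1.76 (SE 0.57, adjusted p = 0.126) between MET/CAT and GFP in KO livers. Of 7 neutrophil markers 6 were tested, with none at 0 in all libraries. Averaged over genotypes, all 6 were called higher with MET/CAT than with GFP (median log2 fold change 3.27), against 2.4% of all genes. The 4 with the smallest p in that comparison were S100a8 at 2.99 (SE 0.44, adjusted p = 0.00246), Mmp8 at 4.15 (adjusted p = 0.00311), S100a9 at 3.24 (adjusted p = 0.00319) and Cxcr2 at 4.06 (adjusted p = 0.00568). Within KO livers 3 of the 6 were called higher (median 3.63), and within WT livers 1 (median 2.86), against 0.858% and 0.209% of all genes. In GFP livers Mmp8 and Cxcr2 averaged under 1 normalized read, so the sizes of these 2 fold changes depend on the 1 added before taking logs. The summed level of the list was 3060, 409 and 594 normalized reads in KO MET/CAT livers. It was 312, 1059 and 697 in WT MET/CAT livers, against 57.0 to 81.6 in KO GFP livers and 77.1 to 175 in WT GFP livers. Their part in the Cyp4f18 values was not tested. Cyp4b1, which oxidizes fatty acids and some lung toxins, had 175, 103 and 174 normalized reads in KO MET/CAT livers and 129.6, 116 and 121 in WT MET/CAT livers, against 119, 114 and 78.6 in KO GFP livers and 106, 153 and 209 in WT GFP livers. Cyp4v3, a fatty acid omega-hydroxylase, had 6127, 4711 and 3449.8 normalized reads in KO MET/CAT livers and 5023, 4573 and 4226 in WT MET/CAT livers, against 5226, 5066 and 5581 in KO GFP livers and 5654, 5787 and 4031 in WT GFP livers. Neither separated the groups.

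Knockout of Sirt2 gave no call among the 54 members. Averaged over plasmids 0 members were called between KO and WT livers, against 0.0144% of all genes. A single member had an unadjusted p under 0.05 (1.85%, against 8.11% of all genes), and edgeR and DESeq2 called 0. In MET/CAT livers 0 were called, against 0.00721% of all genes, with 5 at an unadjusted p under 0.05 (9.26%, against 7.76%), 0 by edgeR and 1 by DESeq2. In GFP livers 0 were called, against 0.00721% of all genes, with 4 at an unadjusted p under 0.05 (7.41%, against 15.5%), and 0 by edgeR and by DESeq2. The median log2 fold change of the members was −0.05 in MET/CAT livers and −0.02 in GFP livers, against −0.00192 and −0.07 over all genes. The comparisons within MET/CAT livers and between plasmids share libraries, as do those within GFP livers, so their values are not independent.

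In MET/CAT livers the 5 members with the smallest p for KO against WT were Cyp2a22, Cyp2a4, Cyp2b10, Cyp4f18 and Cyp2d9. Cyp2a22 had 1009, 453 and 608 normalized reads in KO MET/CAT livers against 3777, 1813 and 1193 in WT MET/CAT livers, and 560.1, 491 and 938 in KO GFP livers against 1296, 654 and 991 in WT GFP livers. KO MET/CAT libraries were below WT MET/CAT libraries, and the log2 fold change was −1.62 (SE 0.41, adjusted p = 0.495). DESeq2 called it. It was also the member with the smallest p averaged over plasmids, at −1.095 (SE 0.29, adjusted p = 0.508). Cyp2a4 differed by 1.02 (SE 0.31, adjusted p = 0.496) and Cyp4f18 by 1.34 (SE 0.57, adjusted p = 0.605), with the KO MET/CAT libraries above the WT MET/CAT libraries for both. Cyp2b10 differed by −1.64 (SE 0.65, adjusted p = 0.598) and Cyp2d9 by 1.33 (SE 0.58, adjusted p = 0.605), and in both the groups overlapped. Libraries of the 2 genotypes lay apart for 3 of 54 members, 2 higher and 1 lower in KO livers, against 13.8% of all genes (6.82% higher and 7.01% lower). Averaged over plasmids, Cyp2a4 differed by 0.45 (SE 0.22, adjusted p = 0.620), Cyp2d9 by 0.78 (SE 0.41, adjusted p = 0.641), Cyp2c37 by −0.43 (SE 0.26, adjusted p = 0.671) and Cyp2c67 by 0.24 (SE 0.15, adjusted p = 0.678).

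In GFP livers the smallest p belonged to Cyp2c54, Cyp4a31, Cyp4a14, Cyp2c23 and Cyp2c55, all higher in KO livers without passing. Cyp2c54, whose values are above, differed by 0.79 (SE 0.27, adjusted p = 0.287) and Cyp2c23 by 0.45 (SE 0.20, adjusted p = 0.313). Cyp2c55, an epoxygenase best known from the intestine, had 246, 375 and 156 normalized reads in KO MET/CAT livers against 403, 251 and 347 in WT MET/CAT livers, and 219.8, 303 and 326 in KO GFP livers against 190.5, 180.2 and 168 in WT GFP livers, and differed by 0.63 (SE 0.30, adjusted p = 0.329) in GFP livers. For these 3 genes the KO GFP libraries were above the WT GFP libraries. Cyp4a14 differed by 0.69 (SE 0.30, adjusted p = 0.308). Cyp4a31 had 238, 116 and 156 normalized reads in KO MET/CAT livers against 228, 253 and 193 in WT MET/CAT livers, and 171, 222 and 279 in KO GFP livers against 191, 103 and 77.95 in WT GFP livers, and differed by 0.92 (SE 0.35, adjusted p = 0.290). All 4 Cyp4a genes were above 0 in this comparison (median 0.65), under each of 4 other scalings too, with the limit of shared words given above. Libraries lay apart for 5 of 54 members, 4 higher and 1 lower in KO livers, against 22.1% of all genes (9.15% higher and 13% lower).

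Marker lists of other cell types were counted between KO and WT GFP livers too. No gene of them was called, against 0.00721% of all genes, and no list was tested as a whole. Of 13 macrophage and Kupffer cell genes, all tested and none at 0 in all libraries, 0 were above 0 between KO and WT GFP livers (median log2 fold change −1.40). Their summed level was 2027 to 6287 normalized reads in KO GFP livers, against 10062 to 13189 in WT GFP livers. Of 5 lymphocyte genes tested 0 were above 0 (median −1.11), and their summed level was 38.0 to 111 normalized reads in KO GFP livers, against 118 to 166 in WT GFP livers. Of 5 cholangiocyte genes tested 0 were above 0 (median −0.33), though 1 gene of each of these 2 lists was above 0 with equal library totals. The cholangiocyte sums overlapped, at 186 to 447 normalized reads in KO GFP livers against 357 to 432 in WT GFP livers. Of 5 proliferation genes 5 were above 0 (median 1.25), at 207 to 722 normalized reads in KO GFP livers, against 105 to 595 in WT GFP livers. Of 23 PPARA targets outside the P450s 19 were above 0 (median 0.33), and all 4 Cyp4a genes were, as given above. The sums of the PPARA list overlapped, at 162077 to 270899 normalized reads in KO GFP livers against 165852 to 226112 in WT GFP livers. The part of these lists in the P450 values was not tested. For the interaction of KO and MET/CAT, the 5 smallest p belonged to Cyp2c54 at −1.31 (SE 0.38, adjusted p = 0.265), Cyp4a31 at −1.38 (SE 0.49, adjusted p = 0.265), Cyp2c23 at −0.75 (SE 0.28, adjusted p = 0.270), Cyp2a4 at 1.14 (SE 0.44, adjusted p = 0.278) and Cyp2c55 at −1.06 (SE 0.42, adjusted p = 0.283). For Cyp2c54, Cyp4a31, Cyp2c23 and Cyp2c55 the value of MET/CAT over GFP was thus lower in KO than in WT livers, and for Cyp2a4 higher, without any passing.

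**Figure D5:**
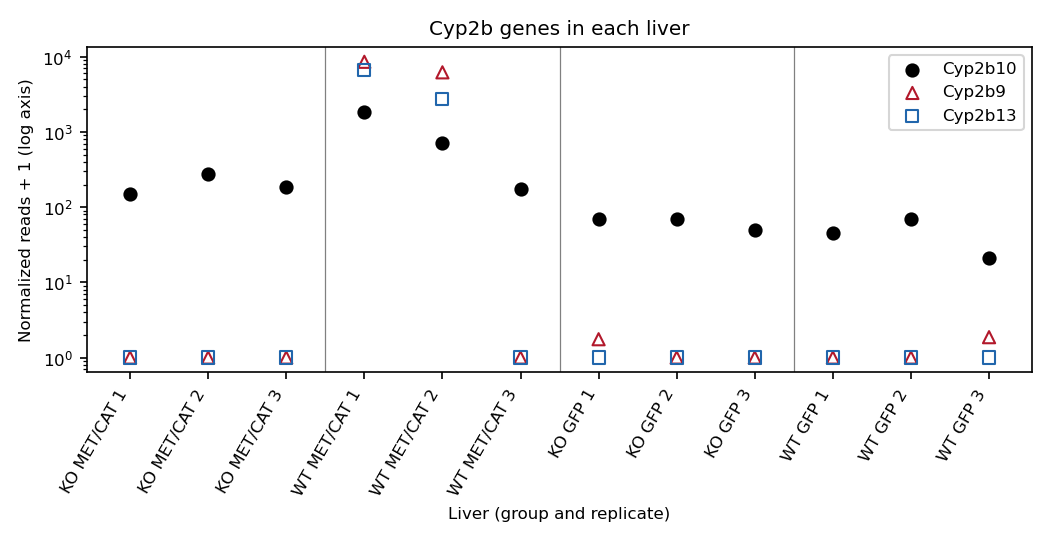
Normalized reads of Cyp2b10, Cyp2b9 and Cyp2b13 in each library on a log axis of value + 1, with the 4 groups in order and a point for each library. WT MET/CAT replicates 1 and 2 reach 8586 and 6216 for Cyp2b9 while every other library is at or below 0.866.

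Regulators of P450 genes were examined as a list of 29 genes, 28 of them tested. Averaged over genotypes, MET/CAT livers had 1 called higher and 3 called lower than GFP livers (list median −0.03, against 0.02 over all genes). The 3 lower ones were Dbp, Tef and Hlf, the clock-controlled factors that bind D-box sites and are known in mouse liver to act on P450 genes, Cyp2a4 and Cyp2a5 among them. Dbp had 75.9, 15.7 and 516 normalized reads in KO MET/CAT livers and 68.8, 649 and 20.01 in WT MET/CAT livers, against 2430.3, 2643 and 2258 in KO GFP livers and 2730.4, 2678 and 2058 in WT GFP livers. All 6 MET/CAT libraries were below all 6 GFP libraries, and the log2 fold change was −4.73 (SE 0.79, adjusted p = 0.00576). Tef fell by 1.56 (adjusted p = 0.00641) and Hlf by 0.59 (adjusted p = 0.0308). The call of Hlf was lost without any 1 of WT GFP replicates 1 to 3, KO GFP replicate 1, WT MET/CAT replicates 2 and 3 and KO MET/CAT replicates 2 and 3, with adjusted p of 0.0640 to 0.0748. No source used here gives the hour at which livers were taken, and the part of these factors in the Cyp2a values was not tested. Stat5a, which carries growth hormone signals, rose by 1.22 (adjusted p = 0.0161). The receptor Nr1i3 (CAR) had 178, 86.8 and 123 normalized reads in KO MET/CAT livers and 347, 168 and 146 in WT MET/CAT livers, against 339, 275 and 396 in KO GFP livers and 216, 322 and 236 in WT GFP livers. Its KO MET/CAT libraries were below its KO GFP libraries, at −1.42 (SE 0.34, adjusted p = 0.0625), which did not pass, and the WT groups overlapped. None of the 25 lists examined had a called gene between KO and WT livers, within either plasmid or averaged, or for the interaction. Over all genes 0.00721% were called within either plasmid, 0.0144% averaged and 0% for the interaction, so this absence does not set the lists apart.

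Targets of the same receptors outside the P450s were counted between MET/CAT and GFP livers averaged over genotypes. The share called over all genes was 3.8%, with 2.4% higher and 1.4% lower. Of 15 CAR and PXR targets tested, 1 was called higher, the glutathione transferase Gstm3 at 1.15 (SE 0.23, adjusted p = 0.0123), and none lower (list median 0.01). Of 23 PPARA targets tested, Plin5, a coat protein of lipid droplets, rose by 1.77 (adjusted p = 0.00371) and the thioesterase Acot3 fell by 1.72 (adjusted p = 0.0348), with a list median of 0.15. Of 5 AHR targets tested none was called, and the 2 with the smallest p, Tiparp and Lpcat2, differed by 0.57 (SE 0.31, adjusted p = 0.365) and 0.37 (SE 0.47, adjusted p = 0.737). Of 18 genes of electron transfer and haem supply, 1 was called, the haem-degrading Hmox1 at 1.76 (SE 0.46, adjusted p = 0.0490). That call was lost without any 1 of the 6 GFP libraries or of WT MET/CAT replicates 2 and 3 (adjusted p = 0.0725 to 0.113), and under 4 other settings. The call of Acot3 was lost without any 1 of WT GFP replicates 1 and 2, KO GFP replicates 1 and 3, WT MET/CAT replicates 2 and 3 and KO MET/CAT replicates 2 and 3 (adjusted p = 0.0646 to 0.0963). Of 12 P450 genes of other families, Cyp39a1 rose by 0.64 (adjusted p = 0.0180), and Cyp7a1, the rate-limiting enzyme of bile acid synthesis, fell by 1.56 (adjusted p = 0.00875). Without WT GFP replicate 1 the call of Cyp39a1 was lost (adjusted p = 0.0591).

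Genes with a known position along the liver lobule were examined next, averaged over genotypes. In that comparison 3.8% of all genes were called, 2.4% higher and 1.4% lower. Of 18 pericentral genes outside the P450s, 7 were called higher with MET/CAT than with GFP and none lower (median log2 fold change 0.82), among them Glul, the beta-catenin target and glutamine synthetase, at 1.54 (SE 0.21, adjusted p = 0.00179). Gstm3, Slc1a2 and Tbx3 were others, at 1.15, 1.11 and 1.104. Within 1 genotype, 1 of these 18 genes was called higher in KO livers and 0 in WT livers. The summed level of that list was 112363 to 215244 normalized reads in KO MET/CAT livers and 121313 to 198843 in WT MET/CAT livers, against 80506 to 97453 in KO GFP livers and 93574 to 110201 in WT GFP livers. Of 11 pericentral P450 members, 0 were called, with a median of 0.16. Beside a share of 3.8% over all genes, 0 of 11 does not set them apart from other genes. The difference between the lists was not tested. Of 13 periportal genes outside the P450s none was called (median 0.12), and the 2 with the smallest p, Sdsl and Sds, differed by 0.73 and 0.56.

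Sex-biased genes and fatty acid enzymes were counted in the same comparison, in which 2.4% of all genes were called higher and 1.4% lower. Of 11 female-biased P450 genes listed, 9 passed the minimum (Cyp2b9 and Cyp2b13 did not), of which 1 was called higher (Cyp2b10) and 1 lower (Cyp2a4), and of 4 male-biased ones none was. Of 12 male-biased genes outside families 1 to 4, Nudt7 fell by 1.26 (adjusted p = 0.0168) and Hsd3b5 by 3.38 (adjusted p = 0.0241), and of 13 female-biased ones Acot3 alone was called. The call of Hsd3b5 was lost without WT GFP replicate 2, KO GFP replicate 1 or 2, WT MET/CAT replicate 3 or KO MET/CAT replicate 1 or 3, with adjusted p of 0.0545 to 0.0626. The Cyp2c, Cyp2j, Cyp4a and Cyp4f subfamilies hold epoxygenases of arachidonic acid and omega-hydroxylases of fatty acids, though not every member has such an activity. Of all their 26 members, 21 were above 0 and 1 was called, Cyp4f17 (median 0.19). The remaining marker lists gave 0 calls of 8 for hepatocytes, 1 of 13 for macrophages (Laptm5, 0.66), 1 of 5 for cholangiocytes (Sox9, 2.11), 1 of 4 for oncofetal genes (Afp, 1.96), and 0 for endothelial, stellate, lymphocyte and proliferation genes. The call of Laptm5 was lost without any 1 of WT GFP replicates 1 to 3, KO GFP replicate 1, WT MET/CAT replicate 2 and KO MET/CAT replicates 1 and 2 (adjusted p = 0.0627 to 0.0836), and that of Afp without WT GFP replicate 2, KO GFP replicate 1 or KO MET/CAT replicate 1 (adjusted p = 0.05003 to 0.0546). In the lists with no call, the 2 genes with the smallest p were Hnf4a at 0.52 and Fgb at 0.64 for hepatocytes, Pecam1 at 0.69 and Lyve1 at 0.66 for endothelium, Lrat at −1.02 and Col1a2 at 0.48 for stellate cells, Cd3g at −0.53 and Cd3e at −1.01 for lymphocytes, and Mki67 at 0.76 and Birc5 at −0.39 for proliferation. The part of these lists in the P450 values was not tested.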

How the data were processed

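RNA of whole mouse liver was measured in 12 libraries, 3 per group. The submitters' processing notes list GRCm38 as the build and, as tools, HTSeq 0.11.2 and HISAT2 2.0.4. The sources used here state no library kit, no strand setting and no normalization tool, and reads of overlapping or antisense genes cannot be told apart. Each deposited value is a signal, in that the authors divided the gene's counts by 1 factor per library. Dividing each library by its step gave whole reads for 100% of values within a tolerance of 0.01 reads, with a departure of at most 0.000371 reads, though the steps of replicate 1 of WT GFP and of WT MET/CAT are too near 1 to show it.

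The main test was limma 3.58.1 (R 4.3.3) with its trend option on log2(value + 1), with 4 group means over all 12 libraries and the 13871 genes that reached 10 normalized reads in 3 or more libraries. Fold changes on this scale understate the change of low genes. Adjusted p are Benjamini-Hochberg values over all genes tested, called under 0.05. edgeR 4.0.16 (quasi-likelihood) and DESeq2 1.42.0 were run on the recovered reads as alternatives, beside other pseudocounts, minimum values, normalizations, library weights, a replicate block and each library left out. Levels per kilobase used 1 protein-coding principal transcript per gene in GENCODE M21, and shared 50-base words came from its transcripts. Promoters are RefSeq's on GRCm38.p6. Figures used Python 3.11.15 and matplotlib 3.10.9.

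Named with a fold change were, in each comparison, all called members, and the 5 with the smallest p where fewer than 5 were called. Given in every library were those named between plasmids, 12 chosen enzymes and the most abundant member of each subfamily. From each list outside the members, averaged over genotypes, all called genes were named, the 4 with the smallest p where over 5 were called, and otherwise 2 as values. Cyp2b9, Cyp2b13 and Sult2a1 were added after their values were seen, as were a few further members given by range. The members and lists were chosen with earlier results of these data known. Same-numbered libraries of different groups correlated at −0.195 to 0.280 in their deviations from the group means (median −0.00568, 18 pairs). Other pairs correlated at −0.289 to 0.189 (median −0.0132, 36 pairs). Numbers were taken as names and not as pairs, which these values cannot settle.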

Additional observations from a re-analysis of the deposited data

Results flagged for a closer look

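The values below come from P450 genes that did not reach the minimum, so no comparison used them, and each exceeds its level in the WT GFP livers. Cyp2b9 reached 8586 normalized reads in WT MET/CAT replicate 1, against at most 0.866 in WT GFP livers. Cyp2b13 reached 6738 normalized reads in the same library, against 0 in all 3 WT GFP livers. WT MET/CAT replicate 2 had 6216 and 2727 normalized reads of these genes, and WT MET/CAT replicate 3 was at 0 for both. Cyp2t4 reached 13.2 normalized reads in KO MET/CAT replicate 1, above its WT GFP libraries. None of these differences was tested, and each rests on 1 or 2 libraries.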

How the results depend on the processing

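All 4 members called between MET/CAT and GFP livers averaged over genotypes kept the call in each fit that left out 1 library. Their number was 15 with library quality weights, 8 with DESeq2 and 7 with the replicate block, and 4 to 7 with 1 library left out. In WT livers the 2 calls became 1 with no minimum value, 7 with library weights, 8 with DESeq2, 4 with the replicate block and 0 in a fit of the 6 libraries compared. They ranged from 0 to 3 with 1 library left out, at 0 without WT GFP replicate 1, WT GFP replicate 2 or WT MET/CAT replicate 2. In KO livers the 0 calls became 1 with pseudocount 5 (Cyp2g1), 3 with quantile normalization, 3 with equal library totals, 12 with library weights and 5 with DESeq2, and 0 to 1 with 1 library left out. Between KO and WT, library weights gave 14 calls in GFP livers and 2 averaged over plasmids, DESeq2 gave 1 in MET/CAT livers, and the interaction had 2 with library weights. The cause of these changes was not tested. Of 52 fold changes printed for members, each under every alternative that gave a value, 1079 values kept their direction and side of the threshold, 59 newly passed, 13 no longer passed, all of Cyp2b10 or Cyp2a4 in WT livers, and 18 changed sign. Those 18 belong to 4 members with an averaged value near 0. Cyp3a11 was −0.19 with quantile normalization, −0.13 with equal library totals and −0.0919 with library weights. Cyp1a2 was −0.00418 with library weights. With 1 library left out, Cyp3a11 ranged from −0.0351 to 0.117, Cyp2e1 from −0.197 to 0.0187 and Cyp2f2 from −0.153 to 0.0576. Of 37 fold changes of other genes, 743 values stayed, 17 newly passed, 46 no longer passed and 2 changed sign, both of Birc5, from −0.779 to 0.0886 with 1 library left out. Counts of genes above 0 in small lists and subfamilies also moved with the scaling. The replicate numbers were taken as names, and 5 of 12 libraries correlated best with their own number. Same-numbered pairs had a median of −0.00568 and other pairs −0.0132, with a highest value of 0.189 in the latter. WT GFP and KO GFP replicates 2 correlated at 0.280, and replicates 3 at 0.264. These values cannot show that no numbers were paired. Equal library totals moved the median of all genes to −0.14 between MET/CAT and GFP averaged over genotypes. With 3 libraries per group, small changes could not be seen, and members with few reads such as Cyp1a1, Cyp1b1 and Cyp3a16 are limited by depth.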

Other observations

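Of the P450 symbols of families 1 to 4, 25 lie outside the name pattern, most of them ending in a letter or in a pseudogene mark, and 7 reached 10 normalized reads in 3 or more libraries. Cyp4a12a, a fatty acid hydroxylase made mainly in male mouse liver, had 93.9, 673 and 23.4 normalized reads in KO MET/CAT livers and 70.8, 6.33 and 53.4 in WT MET/CAT livers, against 396, 315 and 255 in KO GFP livers and 174, 74.8 and 23.4 in WT GFP livers. The 3 KO GFP libraries were above the other libraries except KO MET/CAT replicate 2, the highest of all. That library was also the highest in Cyp2d9, another male-biased gene, at 10754 normalized reads. Cyp3a41a, made mainly in females, had 207, 0 and 15.9 normalized reads in KO MET/CAT livers and 0.997, 32.7 and 434 in WT MET/CAT livers, against 0, 0 and 1046 in KO GFP livers and 183, 26.1 and 21.7 in WT GFP livers. KO GFP replicate 3 was its highest library, as it was for Cyp3a16 and Cyp3a44. Male-biased genes outside families 1 to 4 summed to 9376 to 30044 normalized reads in KO MET/CAT livers and 8761 to 10650.4 in WT MET/CAT livers, against 10981 to 32423 in KO GFP livers and 11159 to 28890 in WT GFP livers. Female-biased ones summed to 3195 to 14967 in KO MET/CAT livers and 13188 to 26247 in WT MET/CAT livers, against 5666 to 18007 in KO GFP livers and 7284 to 11933 in WT GFP livers. No difference in these sums was tested.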
